A study of Mus musculus with 16 samples.

Results

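The motile cilium genes were a set of 32 genes fixed by name, all of which were listed in the files, out of 28683 genes listed in at least 1 library. They comprise Foxj1, the dynein arm genes Dnah5, Dnah9, Dnah11, Dnah6, Dnah12, Dnali1, Dynlrb2 and Efcab1, the radial spoke and nexin link genes Rsph1, Rsph4a, Iqcg and Lrrc23, the central pair genes Spag6, Spag16, Spag17 and Hydin, the doublet microtubule genes Tekt1, Tekt2, Tekt4, Mns1 and Enkur, the intraflagellar transport genes Ift88 and Ift57, and Tmem212, Ccdc153, Ak7, Calml4, Fam183b, 1110017D15Rik, Pifo and Meig1. The rule fixed them by name and used no measured value, but the genes were chosen with earlier results of these data known.

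RNA of single cells was measured by Drop-seq, a droplet method that counts the 3′ ends of captured transcripts as unique molecular identifiers (UMIs), each assigned to a cell by its barcode, in the dissected hypothalamus and preoptic area of 16 female mice on a mixed CD-1;129P2 background, 1 library per mouse. The Esr1cKO mice were homozygous for a floxed allele of Esr1, the gene of estrogen receptor alpha. They also carried an Nkx2-1-Cre transgene, which deletes Esr1 only in cells with a history of Nkx2-1 expression. The mice named WT were littermates without Cre, and their Esr1 alleles are not given in the sources used here. Mice were injected under the skin once a day, for 28 days in all, with corn oil or with 0.1 mg/kg of tamoxifen, starting at 8 to 10 weeks of age, and tissue was collected 2 h after the last injection, 4 mice on each of 4 days. The groups were WT oil (n = 3; libraries S1, S5 and S10), WT tamoxifen (n = 5; S3, S8, S9, S13 and S16), Esr1cKO oil (n = 4; S4, S7, S12 and S14) and Esr1cKO tamoxifen (n = 4; S2, S6, S11 and S15).

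Motile cilia beat and move fluid over the surface of the ventricles, trachea and oviduct. Their axoneme is a ring of doublet microtubules around a central pair. Dynein arms slide the doublets past each other, radial spokes and nexin links regulate that sliding, and intraflagellar transport carries parts into every cilium, motile or not. In the brain, tufts of motile cilia are borne by ependymal cells, which line the ventricles. Tanycytes are the elongated cells of the floor and lower walls of the third ventricle, and most other brain cells bear at most an immotile primary cilium. Foxj1 is a forkhead transcription factor needed to make motile cilia, and factors of the RFX family act on many of the same genes.

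Of 55675 kept cells, 1868 were ciliated ependymal-like cells (called ciliated cells from here on) and 1258 were tanycyte-like cells (tanycytes). Clusters were made without the 32 genes and without 2 further lists of cilium genes, so that none of the listed genes defined the cells in which they were then measured. Cilium genes under names that these lists did not hold, such as Stoml3, Ccdc19 and Wdr96, did take part in the clustering. The 3 ciliated sub-clusters were each high in 9 of 10 ependymal markers and in 0 tanycyte markers. The Rspo3-led tanycyte sub-cluster was high in 10 of 13 tanycyte and 5 of 10 ependymal markers, and the Col25a1-led one in 12 and 3. A smaller tanycyte sub-cluster of 73 cells, led by Lpl, was high in 6 and 5, so its identity is less clear. With the cilium genes kept in the clustering, an Lpl-led sub-cluster of 59 cells was high in 3 of each and was named ciliated. Counted against the other cells of the ependymal cluster alone, the tanycyte sub-clusters were high in 2, 0 and 0 ependymal markers. Ciliated sub-clusters 1, 2 and 3 were then high in 0, 4 and 0, with other ciliated cells among those compared. The other named cells were 13569 astrocyte-like, 9221 oligodendrocyte-like, 9139 neuron-like, 7147 endothelial-like, 5410 microglia-like, 4456 polydendrocyte-like, 2370 mural-like, 963 fibroblast-like and 214 pars tuberalis-like cells, and they are named below without the suffix. Another 8 choroid plexus-like cells came from 1 library, and a sub-cluster of 52 cells led by Sspo and Spp2, all from library S11, was left unnamed.

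Kept UMIs ranged from 1717573 to 5457033 per library, and ciliated cells gave 30971 to 526502 UMIs from 20 to 271 cells per mouse. Libraries S10 (WT oil) and S11 (Esr1cKO tamoxifen) stood apart from the other 14 on the first principal component, which held 55.1% of the variance, at 129 and 124 against -44.4 to -5.65. A total of 520 barcodes occurred in 2 or more libraries, mostly among S13 to S16, and 84 of the 1868 ciliated cells had such a barcode. Levels are given as CPM, the UMIs of a gene per 1000000 UMIs of the same cells of a mouse. Esr1 stood at 16.4 to 90.8 CPM in WT and 10.1 to 60.3 in Esr1cKO mice. The lowest value of each genotype came from S10 and S11, and the other libraries stood at 40.5 to 90.8 in WT and 33.2 to 60.3 in Esr1cKO mice. The ranges overlap in either case. Whether the 3′ tags cover the floxed part of the gene was not tested. The paper reports that staining for the receptor protein was lost in parts of this tissue in Esr1cKO mice.

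The promoters of 4 genes are shown because they held the core of the RFX binding motif, and because their transcripts were among the most frequent of the set in ciliated cells. They were picked after the values were seen, as the genes with most UMIs in ciliated cells among those whose promoter held the core. Each runs from 250 bases before to 50 bases after the RefSeq start, in GRCm38.p6, read 5′ to 3′ along the gene's own strand, and capitals mark the core GTTGCC as it reads on that strand. The windows are Ccdc153 (chr9:44240427-44240726, plus strand), Fam183b (chr11:58801911-58802210, minus strand), Dynlrb2 (chr8:116504765-116505064, plus strand) and Enkur (chr2:21205316-21205615, minus strand).
Ccdc153: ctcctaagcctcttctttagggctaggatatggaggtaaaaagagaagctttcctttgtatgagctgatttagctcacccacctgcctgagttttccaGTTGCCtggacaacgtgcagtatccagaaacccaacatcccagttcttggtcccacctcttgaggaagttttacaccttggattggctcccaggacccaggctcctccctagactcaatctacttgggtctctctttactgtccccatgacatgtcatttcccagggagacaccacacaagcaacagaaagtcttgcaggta
Fam183b: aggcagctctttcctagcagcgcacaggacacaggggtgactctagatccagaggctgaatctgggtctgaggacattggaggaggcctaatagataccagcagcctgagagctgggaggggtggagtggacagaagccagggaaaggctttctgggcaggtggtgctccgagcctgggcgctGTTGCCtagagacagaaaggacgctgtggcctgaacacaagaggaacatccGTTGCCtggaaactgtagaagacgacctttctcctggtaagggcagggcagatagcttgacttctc
Dynlrb2: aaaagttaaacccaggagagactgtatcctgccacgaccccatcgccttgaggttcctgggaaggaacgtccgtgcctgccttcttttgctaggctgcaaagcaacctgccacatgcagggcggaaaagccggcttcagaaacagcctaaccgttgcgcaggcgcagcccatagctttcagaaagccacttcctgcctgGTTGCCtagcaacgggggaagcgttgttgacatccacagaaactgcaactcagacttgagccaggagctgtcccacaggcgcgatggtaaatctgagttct
Enkur: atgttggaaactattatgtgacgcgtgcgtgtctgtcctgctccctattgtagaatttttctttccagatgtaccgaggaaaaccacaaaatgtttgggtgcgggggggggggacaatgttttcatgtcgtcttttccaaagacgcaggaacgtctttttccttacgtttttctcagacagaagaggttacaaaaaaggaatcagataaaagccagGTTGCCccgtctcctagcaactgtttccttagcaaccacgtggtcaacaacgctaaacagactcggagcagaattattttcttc

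The RefSeq promoter table matched 28 of the 32 genes, all but Foxj1, Rsph1, Rsph4a and Efcab1. The letters GTTGCC were found on either strand in 15 of these 28 windows, or 53.6%, against 12.7% of all 27025 promoters in the table. The forkhead letters GTAAACA were found in 1 of 28, that of Ak7, or 3.57%, against 3.55% of all promoters. The CCAAT box, looked for as CCAAT on either strand, was found in 11 of 28, or 39.3%, against 37.9%. No window held both GTTGCC and GTAAACA. These are matches of letters in a window and do not show that a factor binds there.

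Ciliated cells held most of the transcripts of this gene set. They were 1868 of 55675 kept cells and gave 69.7% of the 101345 UMIs of the 32 genes, followed by neurons with 11.7% and tanycytes with 6.14%. The share differed from gene to gene. Ciliated cells gave 95.9% of the Ccdc153 UMIs and 94% of the Tmem212 UMIs, but 28% of those of Ift88, 21.3% of those of Tekt2 and 16.3% of those of Ift57. Neurons gave 35.2%, 63.1% and 35.1% of the UMIs of these last 3 genes.

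**Figure D1:**
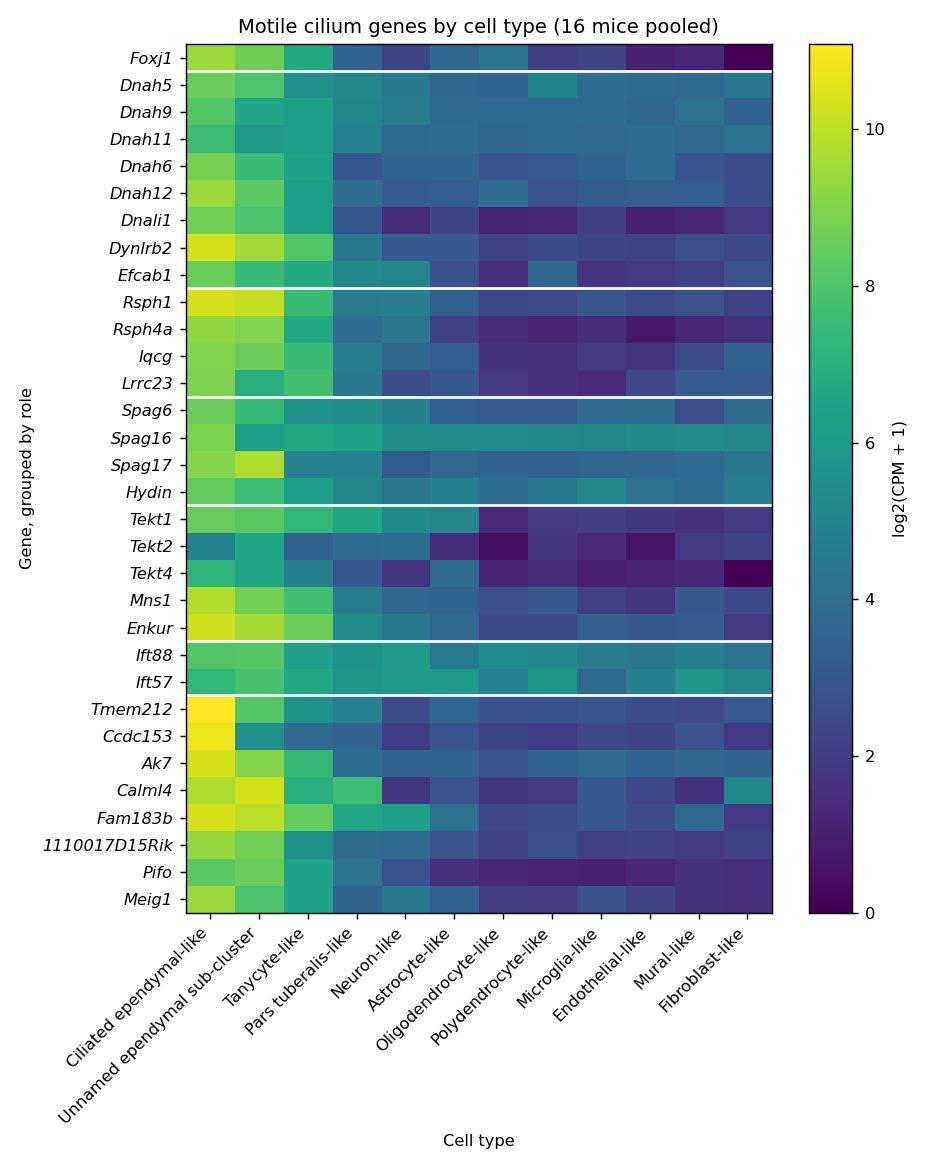
Heat map of the 32 genes (vertical axis, grouped by role) in each cell type (horizontal axis), with colour for log2(CPM + 1) pooled over the mice. The ciliated column is bright for nearly every gene, the columns of the unnamed sub-cluster and of tanycytes are fainter, and the remaining columns are dark, with the 8 choroid plexus-like cells not shown, apart from single genes such as Calml4 in pars tuberalis-like cells (198 CPM) and Fam183b in pars tuberalis-like cells (97.3).

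Summed over the 32 genes, ciliated cells stood at 18700 to 24100 CPM over the 16 mice (median 21100). Tanycytes stood at 2650 to 4500 (median 3600), neurons at 450 to 786 (median 653) and the cells that were neither ciliated nor tanycyte at 327 to 660 (median 445). The ciliated range lay wholly above the tanycyte range, and the tanycyte range wholly above the other 2. In the pool of all kept cells the sum was 857 to 3620 and was highest in S10, the library with the largest share of ciliated cells (8.18%).

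**Figure D2:**
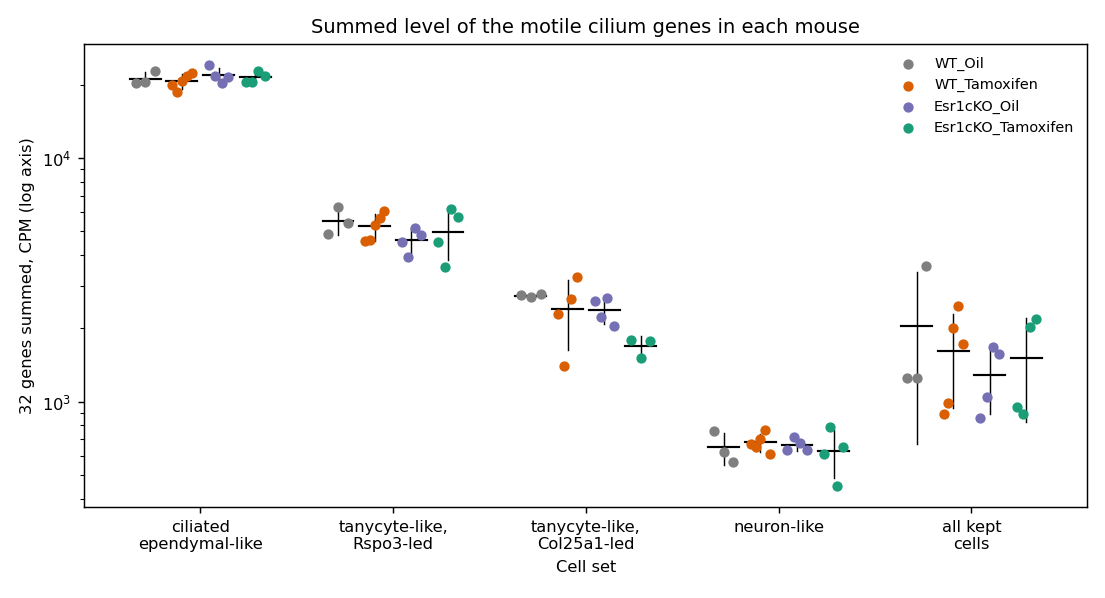
Summed level of the 32 genes in CPM (vertical log axis) in each mouse (points) for 5 cell sets (horizontal axis), coloured by group, with the group mean and SD as a bar. Ciliated cells lie between 18700 and 24100 in every group, Rspo3-led tanycytes between 3560 and 6280, Col25a1-led tanycytes between 1400 and 3240 and neurons between 450 and 786. The groups overlap within each set except in the Col25a1-led tanycytes. There the Esr1cKO tamoxifen mice (1510 to 1800) lie below all WT oil and Esr1cKO oil mice, and the Esr1cKO oil mice lie narrowly below all WT oil mice.

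Ciliated cells were then compared with all other kept cells over the 16 mice, with the library as a block. All 32 genes were higher in ciliated cells at an adjusted p under 0.05. Among all 12200 genes tested, 28.6% were higher and 38% were lower. The median log2 fold change of the 32 genes was 5.52, and that of all genes was -0.15. Scaling by DESeq2 size factors moved the median of all genes from -0.15 to -0.49 and the share of calls that were higher from 43% to 26.7%, and all 32 genes stayed higher. Since correlated cilium genes had helped to form the clusters, the p-values are not an independent test of cell identity.

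Foxj1 (chr11:116330704-116335499), the regulator of the program, stood at 377 to 1260 (median 670) CPM in ciliated cells and averaged 10.2 ± 3.52 (SD, n = 16) in all other cells. Its log2 fold change was 6.10 ± 0.11 (SE), and it was higher in ciliated cells in 16 of 16 mice. In the pool of all other cells the highest level of any mouse was 17.2, far below the lowest ciliated value. Within that pool tanycytes reached 196 and the unnamed cells of S11 stood at 412.

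The 8 dynein arm genes, which encode the motors of the axoneme and their partners, differed by log2 fold changes of 3.84 to 6.62 (median 4.90). Dnali1, a light intermediate chain of the inner arm, differed most, at 427 ± 118 against 4.47 ± 1.64 CPM (log2 fold change 6.62 ± 0.13). Dynlrb2, a light chain of the roadblock type, stood at 872 to 1510 (median 1210) in ciliated cells (log2 fold change 6.49 ± 0.12). The heavy chains followed: Dnah12 at 5.98 ± 0.13, Dnah6 at 5.30 ± 0.11, and the outer arm chains Dnah5, Dnah9 and Dnah11 at 4.41 ± 0.14, 4.05 ± 0.14 and 3.84 ± 0.14. Efcab1, a calcium-binding protein of the outer arm, differed by 4.51 ± 0.11.

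The 4 genes of the radial spokes and nexin link differed by 5.40 to 6.14. Rsph1, a protein of the spoke head, stood at 942 to 1540 (median 1280) CPM (log2 fold change 6.14 ± 0.11), and Rsph4a, another spoke head protein, differed by 5.73 ± 0.12. The central pair genes differed less from the rest of the cells, by 3.83 to 5.56. Spag17 led them at 5.56 ± 0.13 and Spag16 was lowest at 3.83 ± 0.12, at 575 ± 199 CPM in ciliated and 45.1 ± 19.2 in other cells.

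Among the doublet microtubule genes Mns1 and Enkur differed by 5.96 ± 0.12 and 5.68 ± 0.10, and Tekt4 and Tekt1 by 5.17 ± 0.16 and 4.01 ± 0.11. Tekt2, a tektin like the last 2, differed by 2.28 ± 0.23, at 25.9 ± 14.9 against 6.40 ± 2.08 CPM. It was seen in 97 UMIs of ciliated cells in all and was higher there in 14 of 16 mice. Ift88 and Ift57, both subunits of the IFT-B complex that primary cilia also need, differed by 2.89 ± 0.10 and 1.88 ± 0.11. Ift57 was the lowest of the 32 and was nonetheless higher in 16 of 16 mice, at 168 ± 37.2 against 48.4 ± 6.46.

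The largest differences lay among the remaining 8 genes (5.06 to 8.63). Ccdc153 stood at 1270 to 2640 (median 1570) CPM in ciliated cells and averaged 4.38 ± 2.47 elsewhere (log2 fold change 8.63 ± 0.14). Tmem212 (chr3:27866065-27896391) stood at 1800 to 2560 (median 2110) and averaged 8.40 ± 3.75 elsewhere (8.10 ± 0.14). In the pool of all other cells the highest level in any mouse was 11 for Ccdc153 and 16.6 for Tmem212. Within that pool tanycytes reached 42.5 and 120, and the unnamed cells of S11 stood at 45.8 and 275. Ak7, an adenylate kinase, and Fam183b stood at 1120 to 1710 (median 1310) and 995 to 1640 (median 1260), with log2 fold changes of 6.50 ± 0.12 and 5.06 ± 0.11. Fam183b averaged 42.2 ± 13.6 outside ciliated cells, and neurons, described below, held much of it.

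**Figure D3:**
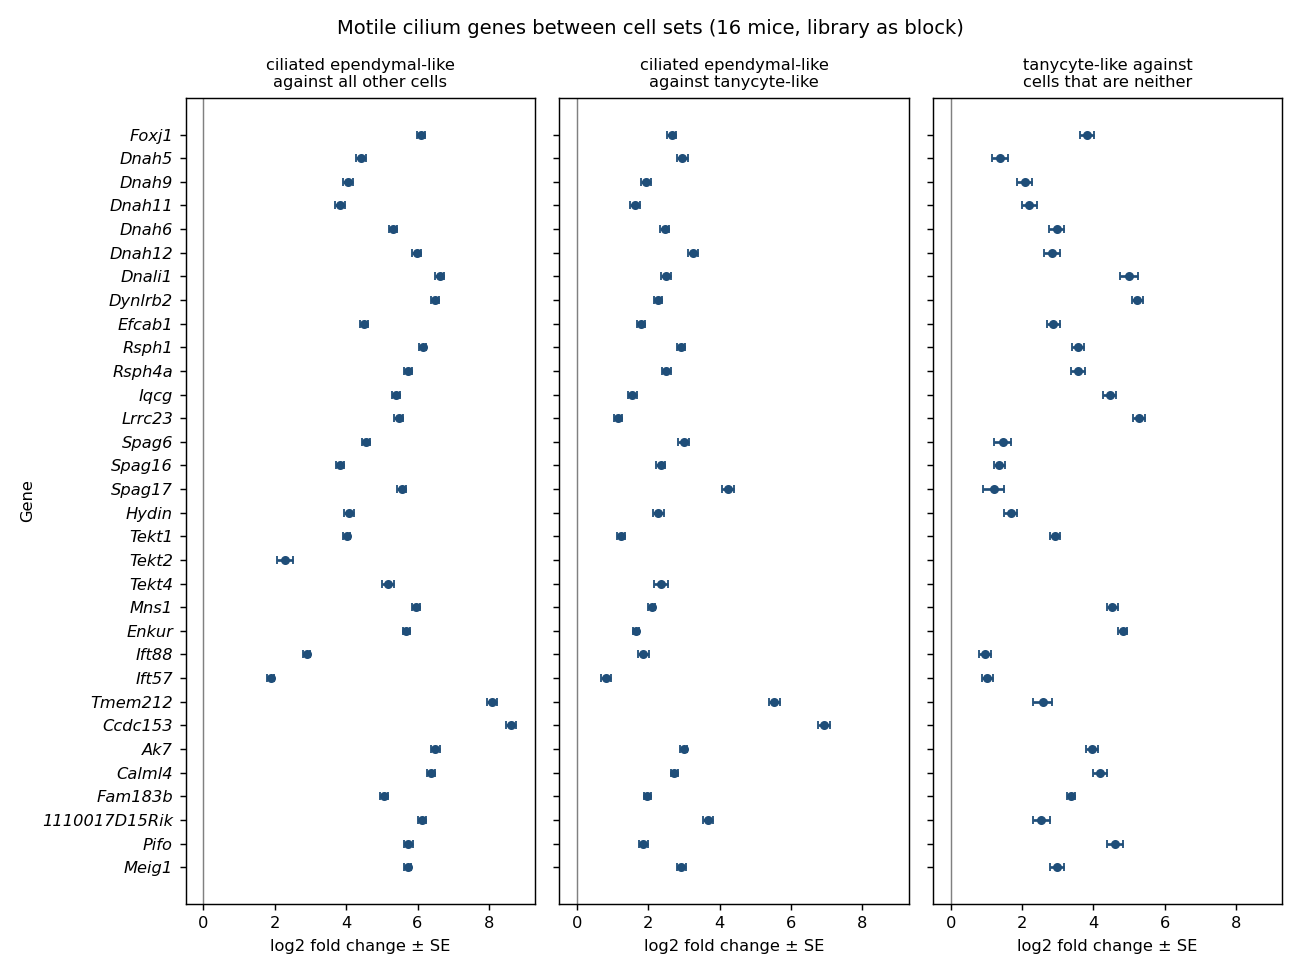
Log2 fold change with its SE (horizontal axis) of each gene (vertical axis) for ciliated cells against all other cells, ciliated cells against tanycytes, and tanycytes against cells that are neither, each over 16 mice. All points shown lie right of 0, from 1.88 (Ift57) to 8.63 (Ccdc153) in the panel of ciliated against all other cells.

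Single cells gave the same order of cell types. A cell of the ciliated clusters held a median of 15 of the 32 genes at 1 UMI or more, a tanycyte 2 and a neuron 1, at median depths of 1264, 931.5 and 1488 UMIs per cell. After each cell was thinned to 500 UMIs, 92.6% of the 1579 ciliated cells with that depth held 5 or more of the genes, against 6.74% of tanycytes and at most 0.0786% of any other named type, leaving out the 8 choroid plexus-like cells. Unthinned, the share with 5 or more was 92.5% in ciliated cells, 29.1% in tanycytes and 3.29% in neurons. Thinning left out 48 of 356 ciliated cells of the WT oil, 125 of 760 of the WT tamoxifen, 45 of 281 of the Esr1cKO oil and 71 of 471 of the Esr1cKO tamoxifen mice.

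Foxj1 was found in 55.5% of ciliated cells (95% exact Clopper-Pearson interval 53.2% to 57.8%), in 11.5% of tanycytes (9.81% to 13.4%) and in 0.112% of endothelial cells (0.0483% to 0.22%), which have no motile cilia and a median of 729 UMIs per cell. At 500 UMIs the shares were 28.1%, 4.49% and 0, the last with an upper limit of 0.0748%. Tmem212 was found in 83.2% of ciliated cells (81.4% to 84.9%), 3.82% of tanycytes (2.83% to 5.03%) and 0.476% of endothelial cells. Tekt2 had the lowest share of the 32 genes in ciliated cells, 4.71% (3.80% to 5.77%). These intervals cover counting error only and pool the cells of 16 mice.

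Tanycytes held the set at a lower level. Of the 32 genes, 31 passed the filter on low counts in the comparison of ciliated cells with tanycytes, and all 31 were higher in ciliated cells, where 34.9% of 2067 genes tested were higher and 35.1% were lower. A gene can pass this filter through its counts in ciliated cells alone. With no filter, all 32 were higher, but the share of all genes called without it was not counted. Tekt2, the gene that did not pass, averaged 25.9 ± 14.9 CPM in ciliated cells and 8.80 ± 8.07 in tanycytes.

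The genes split widely in this comparison. Ccdc153 and Tmem212 differed by log2 fold changes of 6.92 ± 0.18 and 5.53 ± 0.15, and stood in tanycytes at 0 to 42.5 (median 0) and 0 to 120 (median 21.5) CPM. Ccdc153 was seen in only 23 UMIs of all tanycytes. Spag17, of the central pair, followed at 4.22 ± 0.17. At the other end Lrrc23, Tekt1 and Ift57 differed by 1.16 ± 0.11, 1.23 ± 0.11 and 0.81 ± 0.15. Lrrc23, a radial spoke gene, averaged 465 ± 50.5 in ciliated cells and 199 ± 64.8 in tanycytes. Foxj1 lay between these ends, at 14.9 to 196 (median 102) in tanycytes (log2 fold change 2.65 ± 0.12).

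Against the cells that were neither ciliated nor tanycyte, 29 genes passed the filter and all 29 were higher in tanycytes, where 20.1% of 11376 genes tested were higher and 27.9% were lower. With no filter, 31 of 32 were higher, again with no count over all genes. Size factor scaling moved the median of all genes from -0.08 to -0.21 and the share of calls that were higher from 41.9% to 31.9%. Lrrc23, Dynlrb2 and Dnali1 differed most, by 5.29 ± 0.17, 5.23 ± 0.16 and 5.00 ± 0.25, and Enkur by 4.82 ± 0.12. Foxj1 differed by 3.83 ± 0.20, at 105 ± 41.8 against 7.18 ± 2.70 CPM.

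The central pair and intraflagellar transport genes differed least between tanycytes and the other cells, by 1.21 to 1.68 and by 0.96 to 1.03. Tmem212, at 2.58 ± 0.26, was higher in tanycytes in 14 of 16 mice, and Dnah5, at 1.38 ± 0.23, in 11 of 16. Ccdc153, Tekt2 and Tekt4 did not pass the filter, and Ccdc153 was higher in tanycytes in 6 of 16 mice. The 10 ependymal markers, several of which tanycytes also express, summed to 5790 to 11600 CPM in tanycytes over the mice and to 6720 to 10500 in ciliated cells, and the part of RNA or cells from the ciliated clusters was not tested. Lrrc23 and Ccdc153, picked from opposite ends of the comparison with ciliated cells, gave 1540 and 5782 UMIs in ciliated cells, against 357 and 23 in tanycytes.

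The 2 large tanycyte sub-clusters differed. Summed over the 32 genes, the Rspo3-led tanycytes stood at 3560 to 6280 CPM over the mice (median 5030) and the Col25a1-led tanycytes at 1400 to 3240 (median 2430), and these ranges did not overlap. The Rspo3-led cells were also high in more of the ependymal markers, as given above, and the part of RNA or cells from the ciliated clusters in this difference was not tested. In the 14 mice with enough cells of both, 3 of the 32 genes passed the filter and were higher in the Rspo3-led cells, where 18.5% of 682 genes tested were higher and 18% were lower. These were Dynlrb2 (1.37 ± 0.18), Enkur (1.34 ± 0.15) and Fam183b (0.94 ± 0.16). Enkur stood at 170 to 858 (median 581) in Rspo3-led and 73.7 to 424 (median 234) in Col25a1-led cells. With no filter 20 of 32 were higher and 0 were lower, and the share of all genes called without it was not counted. Among the genes that did not pass the filter, Foxj1, at 114 ± 56.9 and 90.9 ± 63.0, differed by less than its spread between mice.

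In the Col25a1-led tanycytes the summed level, in CPM, was 2730, 2680 and 2760 in the WT oil mice, 2290, 1400, 2650 and 3240 in the WT tamoxifen mice other than S3, 2580, 2230, 2660 and 2040 in the Esr1cKO oil mice and 1800, 1510 and 1770 in the Esr1cKO tamoxifen mice other than S6. S3 and S6 had under 10 such cells. The Esr1cKO tamoxifen values lay below all Esr1cKO oil values and the WT groups overlapped. The Esr1cKO oil values in turn lay below all WT oil values, narrowly, at 2660 against 2680 where they came closest. The pattern was noticed in the plot of summed levels by mouse, was not tested, and rests on 1999 UMIs over all mice. In the pool of all tanycytes the groups overlapped, as given below.

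In neurons some genes of the set, among them Tekt2, Rsph4a and Fam183b, were higher than in other cells, and Foxj1 was seen in few UMIs. Among the 24 genes that passed the filter, 16 were higher and 2 were lower in neurons than in cells that were not ciliated, tanycyte or neuron, a comparison in which 40.9% of 12822 genes tested were higher and 41.2% were lower. With no filter, 17 of the 32 were higher and 8 were lower, and the shares of all genes called without it were not counted. Tekt2 differed by 3.20 ± 0.21, at 15.6 ± 5.96 against 1.47 ± 0.99 CPM, in 16 of 16 mice. Rsph4a (2.80 ± 0.25), Fam183b (2.78 ± 0.13), Efcab1 (2.58 ± 0.17), Meig1 (1.88 ± 0.19) and Tekt1 (1.84 ± 0.11) followed. Ift88 and Ift57, whose products also build primary cilia, differed by 0.93 ± 0.09 and 0.52 ± 0.07.

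Spag17 and Dnah12 were lower in neurons, by -0.71 ± 0.19 (edgeR adjusted p = 0.00129) and -0.39 ± 0.17 (edgeR adjusted p = 0.0377). Dynlrb2, Spag16, Dnah6, Dnah11, Ak7 and Hydin did not pass the test, at log2 fold changes of -0.13 to 0.24. Foxj1, Dnali1, Lrrc23, Tekt4, Tmem212, Ccdc153, Calml4 and Pifo did not pass the filter. Foxj1 averaged 4.09 ± 2.29 in neurons and 8.96 ± 4.07 in the cells compared, and was higher in neurons in 1 of 16 mice. Tmem212 and Ccdc153 likewise averaged 5.99 ± 3.02 and 3.50 ± 2.70 in neurons, below the 8.07 ± 3.74 and 4.45 ± 2.45 of the cells compared, though within their spread. With a mitochondrial limit of 5%, 10 genes were higher and 0 were lower. Without S10 and S11, 1 was lower, as also without S5, S11 or S16 alone and without cells whose barcode occurred in another library, and 3 were lower without S6.

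Fam183b was found in 11.4% of neurons (10.8% to 12.1%) and in 0.532% of endothelial cells, and at 500 UMIs in 2.97% and 0.284%. Tmem212 was found in 0.996% of neurons and 0.476% of endothelial cells, and at 500 UMIs in 0.287% and 0.243%. The neuron share of Fam183b was therefore above that of endothelial cells at equal depth, and that of Tmem212 was close to it.

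The other 2 lists of cilium genes were counted in the same comparisons. Of 124 other motile cilium genes 96 were in the files. In ciliated against all other cells 87 of the 88 tested were higher, led by Sntn (8.53 ± 0.14), 1700094D03Rik (5.78 ± 0.10) and Odf3b (6.10 ± 0.11). Of 54 intraflagellar transport and primary cilium genes 53 were in the files and 47 of the 50 tested were higher, with a median log2 fold change of 2.03 against 4.57 for the other motile cilium genes. Against tanycytes the counts were 58 of 59 and 21 of 21. In tanycytes against cells that were neither, 61 of 66 were higher and 1 was lower, and 37 of 47 were higher and 2 were lower. In neurons 35 of 54 were higher and 11 lower, and 36 of 49 were higher and 8 lower.

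The groups were compared within ciliated cells, to ask whether tamoxifen or deletion of Esr1 moved the program where it is expressed. None of the 31 genes tested passed an adjusted p of 0.05 for tamoxifen against oil in WT mice, the same in Esr1cKO mice, the difference between these responses, or Esr1cKO against WT, by edgeR's quasi-likelihood test. In all 4 comparisons 0% of the 5633 genes tested passed. At an unadjusted p under 0.05 the counts were 0, 3, 3 and 2 of the 31 genes, where 4.46%, 3.83%, 7.85% and 2.73% of all genes tested passed. The median log2 fold changes of the genes were -0.04, -0.01, 0.08 and 0.08. Tekt2 did not pass the filter here. In simulated counts with the spread of these ciliated cells, the WT tamoxifen comparison called 1.25% of genes changed 1.5-fold. It called 14.8% of those changed 2-fold and 93.9% of those changed 4-fold, so changes of 2-fold or less would mostly be missed among all genes tested. The changed genes were drawn at random from these, and the rate for the genes of this set was not counted. For tamoxifen in WT mice the intervals of Foxj1 and Tmem212, given below, lie within a 2-fold change.

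The summed level of the 32 genes in ciliated cells was 21200 ± 1300 CPM in WT oil (n = 3), 20700 ± 1420 in WT tamoxifen (n = 5), 22000 ± 1550 in Esr1cKO oil (n = 4) and 21400 ± 1050 in Esr1cKO tamoxifen mice (n = 4). The gap between the lowest and the highest of these means, WT tamoxifen and Esr1cKO oil, was smaller than the SD of either group. The sub-clusters that made up the ciliated cells differed by group. Sub-cluster 3 held 66.1% of the ciliated cells of WT tamoxifen mice and 2.25%, 8.9% and 1.7% of those of the WT oil, Esr1cKO oil and Esr1cKO tamoxifen mice. Sub-cluster 1 held 69.7% of WT oil and 75.8% of Esr1cKO tamoxifen ciliated cells, and sub-cluster 2 held 50.9% of Esr1cKO oil ones. These shares pool the cells of each group's mice, and 263 of the 356 WT oil ciliated cells came from S10. Cells were aligned by group before clustering, and the part of that step in the shares was not tested. The summed levels of the set were 22300, 20500 and 20800 CPM for sub-clusters 2, 3 and 1. Split by group, sub-cluster 3 stood at 12200 in Esr1cKO oil mice (25 cells). Sub-cluster 1 stood at 16500 in WT tamoxifen mice (32 cells), and all other values were 18700 to 22900. Summed markers of other cells in ciliated cells ranged over the mice from 1640 to 2960 CPM for astrocytes, 734 to 1560 for oligodendrocytes, 410 to 1470 for neurons, 290 to 805 for tanycytes and 89.7 to 399 for choroid plexus, and their part in the group values was not tested.

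Foxj1 stood in ciliated cells, in CPM, at 656, 761 and 754 in the WT oil mice, 493, 564, 719, 538 and 796 in the WT tamoxifen mice, 605, 663, 562 and 715 in the Esr1cKO oil mice and 377, 1260, 844 and 677 in the Esr1cKO tamoxifen mice. The groups overlapped, and both the lowest and the highest value came from Esr1cKO tamoxifen mice. Its log2 fold change was -0.24 ± 0.26 (unadjusted p = 0.363, edgeR adjusted p = 1) for tamoxifen in WT mice, with a 95% interval of -0.74 to 0.26. In Esr1cKO mice it was 0.25 ± 0.25 (unadjusted p = 0.334, edgeR adjusted p = 0.999), with an interval of -0.25 to 0.74.

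Tmem212 stood, in CPM, at 2440, 1900 and 2380 in the WT oil mice, 2040, 1840, 2180, 2080 and 2560 in the WT tamoxifen mice, 2400, 2010, 2130 and 1800 in the Esr1cKO oil mice and 2170, 2030, 2260 and 2080 in the Esr1cKO tamoxifen mice. Its intervals were -0.43 to 0.27 for tamoxifen in WT and -0.31 to 0.37 in Esr1cKO mice, and -0.31 to 0.19 for genotype, on the log2 scale. Ccdc153 stood at 1670, 1500 and 2640 in the WT oil mice, 1610, 1460, 1480, 1680 and 1790 in the WT tamoxifen mice, 1270, 1720, 1880 and 1360 in the Esr1cKO oil mice and 1510, 1420, 1590 and 1550 in the Esr1cKO tamoxifen mice. It was among the 3 genes of smallest p for tamoxifen in WT mice, at -0.31 ± 0.21 (unadjusted p = 0.144, edgeR adjusted p = 0.992), and the WT oil and WT tamoxifen values overlapped.

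Dynlrb2 stood, in CPM, at 1490, 1190 and 1510 in the WT oil mice, 1100, 935, 1220, 1190 and 1260 in the WT tamoxifen mice, 1270, 995, 1320 and 1150 in the Esr1cKO oil mice and 1180, 872, 1390 and 1280 in the Esr1cKO tamoxifen mice, and Rsph1 at 1040, 1130 and 1540 in the WT oil mice, 1270, 1170, 1320, 1410 and 1290 in the WT tamoxifen mice, 1360, 1090, 1270 and 942 in the Esr1cKO oil mice and 1310, 1100, 1540 and 1280 in the Esr1cKO tamoxifen mice. Dynlrb2 and Iqcg, a gene of the nexin-dynein regulatory complex, were the other 2 of smallest p for tamoxifen in WT mice, at -0.30 ± 0.20 (unadjusted p = 0.148, edgeR adjusted p = 0.992) and -0.40 ± 0.26 (unadjusted p = 0.141, edgeR adjusted p = 0.992). Iqcg stood at 447, 560 and 602 in the WT oil mice, 493, 344, 461, 460 and 369 in the WT tamoxifen mice, 799, 516, 457 and 542 in the Esr1cKO oil mice and 538, 194, 637 and 496 in the Esr1cKO tamoxifen mice. The WT oil and WT tamoxifen values overlapped for all 3 genes, and S10 was the highest WT oil mouse for Ccdc153, Dynlrb2 and Iqcg.

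Ak7 stood, in CPM, at 1130, 1350 and 1210 in the WT oil mice, 1560, 1200, 1320, 1510 and 1270 in the WT tamoxifen mice, 1710, 1300, 1120 and 1520 in the Esr1cKO oil mice and 1290, 1230, 1310 and 1420 in the Esr1cKO tamoxifen mice. Fam183b stood at 1640, 1190 and 1490 in the WT oil mice, 1240, 1220, 1200, 1280 and 1610 in the WT tamoxifen mice, 1580, 995, 1350 and 1190 in the Esr1cKO oil mice and 1130, 1610, 1380 and 1230 in the Esr1cKO tamoxifen mice. In Fam183b the mouse S16 was the highest of the WT tamoxifen mice, and for both genes the groups overlapped.

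In Esr1cKO mice the 3 genes of smallest p for tamoxifen were 1110017D15Rik, Dnah9 and Spag16. 1110017D15Rik stood, in CPM, at 685, 597 and 722 in the WT oil mice, 765, 536, 676, 551 and 756 in the WT tamoxifen mice, 410, 442, 504 and 493 in the Esr1cKO oil mice and 556, 613, 785 and 726 in the Esr1cKO tamoxifen mice. All Esr1cKO tamoxifen mice lay above all Esr1cKO oil mice, and the log2 fold change was 0.54 ± 0.20 (unadjusted p = 0.0139, edgeR adjusted p = 0.999). The WT mice overlapped.

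Dnah9, an outer arm heavy chain, stood, in CPM, at 268, 261 and 171 in the WT oil mice, 306, 151, 316, 270 and 320 in the WT tamoxifen mice, 410, 393, 287 and 429 in the Esr1cKO oil mice and 161, 194, 185 and 358 in the Esr1cKO tamoxifen mice. Its log2 fold change for tamoxifen in Esr1cKO mice was -0.65 ± 0.28 (unadjusted p = 0.0279, edgeR adjusted p = 0.999). Mouse S15 lay within the Esr1cKO oil values and the other Esr1cKO tamoxifen mice below them, so that the groups overlapped through that mouse. S10 (WT oil) and S11 (Esr1cKO tamoxifen) stood at 171 and 185, and many long genes were low in these 2 libraries, as described below.

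Spag16, of the central pair, stood, in CPM, at 566, 485 and 207 in the WT oil mice, 629, 591, 458, 500 and 547 in the WT tamoxifen mice, 756, 872, 457 and 996 in the Esr1cKO oil mice and 556, 710, 263 and 601 in the Esr1cKO tamoxifen mice. Its log2 fold change for tamoxifen was -0.64 ± 0.30 (unadjusted p = 0.0452, edgeR adjusted p = 0.999) in Esr1cKO mice, and the difference between the responses of the genotypes was -1.11 ± 0.44 (unadjusted p = 0.0192, edgeR adjusted p = 0.547). The lowest values were those of S10 and S11, the libraries that stood apart, in which long genes were low as described below. Dnah9 and 1110017D15Rik were the other 2 genes of smallest p for the difference between responses, at -0.96 ± 0.40 (unadjusted p = 0.0256, edgeR adjusted p = 0.571) and 0.60 ± 0.29 (unadjusted p = 0.05, edgeR adjusted p = 0.634).

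Between genotypes the smallest p belonged to Dnah12, Hydin and Spag16. Dnah12, an inner arm heavy chain, stood, in CPM, at 745, 612 and 538 in the WT oil mice, 476, 660, 630, 770 and 592 in the WT tamoxifen mice, 799, 896, 552 and 1180 in the Esr1cKO oil mice and 682, 775, 774 and 701 in the Esr1cKO tamoxifen mice, with 0.35 ± 0.17 (unadjusted p = 0.0461, edgeR adjusted p = 1). Hydin stood at 179, 351 and 262 in the WT oil mice, 306, 302, 372, 350 and 294 in the WT tamoxifen mice, 497, 393, 261 and 602 in the Esr1cKO oil mice and 305, 484, 352 and 333 in the Esr1cKO tamoxifen mice, with 0.38 ± 0.18 (unadjusted p = 0.0475, edgeR adjusted p = 1). The genotypes overlapped in both genes. Spag16 differed by 0.45 ± 0.22 (unadjusted p = 0.0505, edgeR adjusted p = 1).

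The genes that differed least between ciliated and other cells were Ift57, Tekt2, Ift88 and Spag16. Ift57 stood in ciliated cells, in CPM, at 238, 179 and 158 in the WT oil mice, 221, 96.2, 152, 181 and 116 in the WT tamoxifen mice, 151, 160, 167 and 138 in the Esr1cKO oil mice and 215, 194, 177 and 153 in the Esr1cKO tamoxifen mice, and Ift88 at 328, 224 and 222 in the WT oil mice, 357, 302, 333, 290 and 214 in the WT tamoxifen mice, 432, 270, 250 and 340 in the Esr1cKO oil mice and 269, 226, 261 and 257 in the Esr1cKO tamoxifen mice. Tekt2, which was not tested, stood at 29.8, 37.3 and 49.4 in the WT oil mice, 17, 27.5, 26.5, 22.3 and 13.3 in the WT tamoxifen mice, 0, 24.6, 32.7 and 24.7 in the Esr1cKO oil mice and 53.8, 0, 37.6 and 17.4 in the Esr1cKO tamoxifen mice. All WT tamoxifen mice lay below all WT oil mice for Tekt2, on 97 UMIs over all mice, and the other groups overlapped. Where they came closest, 29.8 in S1 and 27.5 in S8, the values rest on 1 and 2 UMIs, and S10 alone gave 26. Apart from Tekt2 in WT mice and 1110017D15Rik in Esr1cKO mice, none of the 32 genes separated oil from tamoxifen within a genotype. None separated all WT from all Esr1cKO mice. Under oil alone the genotypes did not overlap for Dnah9, higher in Esr1cKO, and for Lrrc23 and 1110017D15Rik, lower in Esr1cKO. Lrrc23 stood at 507, 470 and 505 in the WT oil mice and 410, 442, 454 and 434 in the Esr1cKO oil mice. The share of all genes that separated in this way was not counted.

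**Figure D4:**
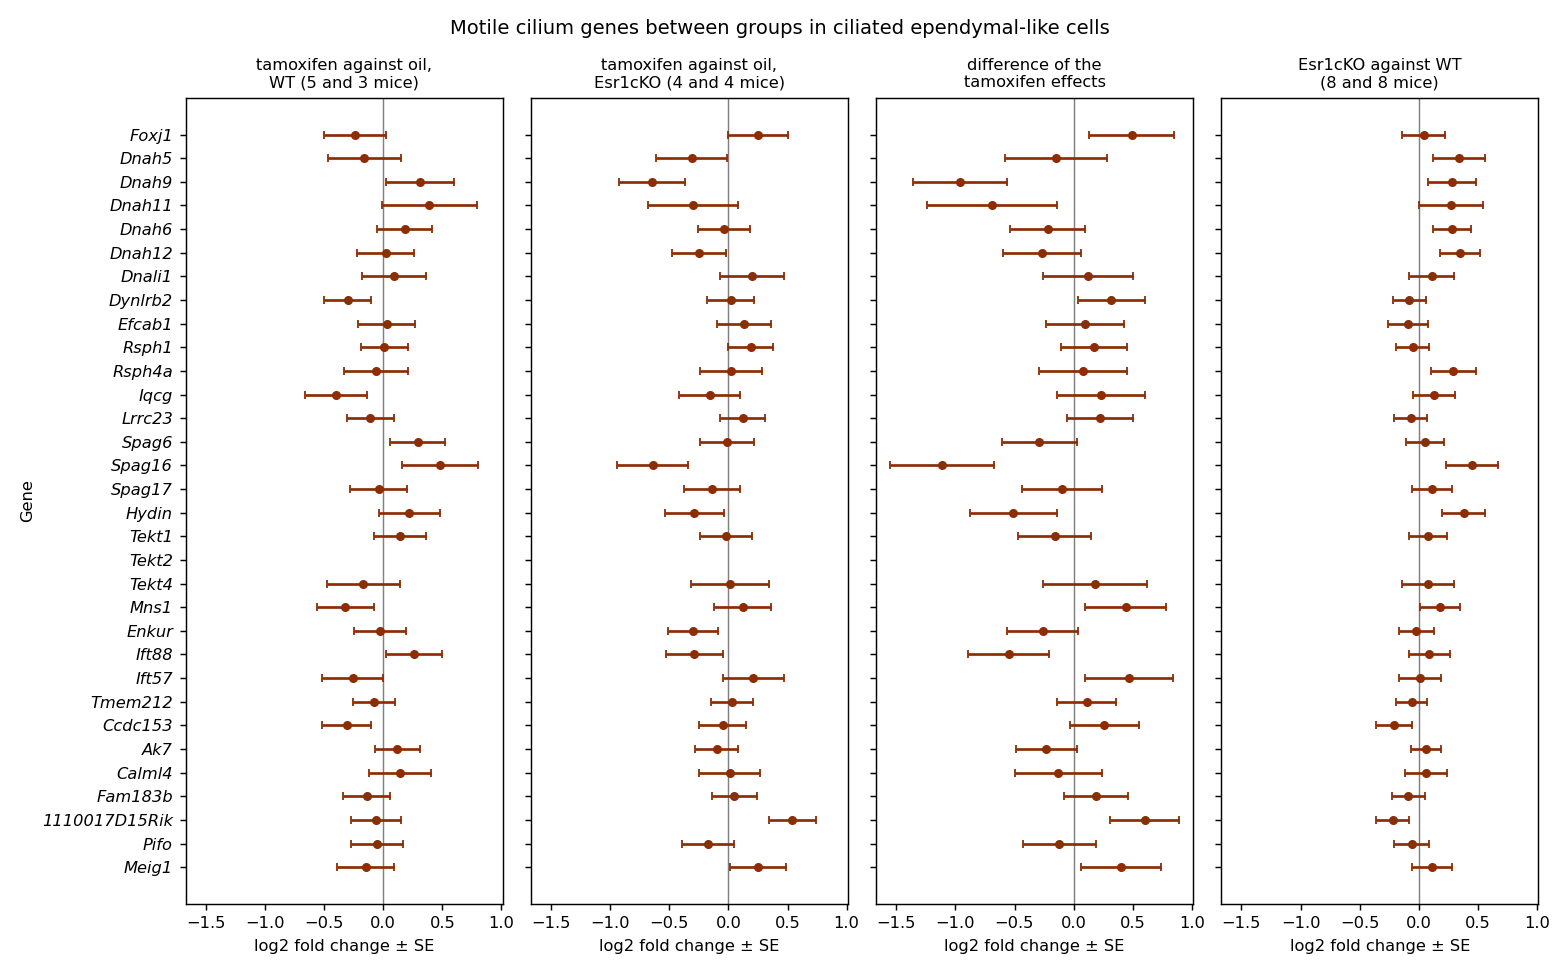
Log2 fold change with its SE (horizontal axis) of each tested gene (vertical axis) in ciliated cells, in 4 panels for tamoxifen against oil in WT, the same in Esr1cKO, the difference between these, and Esr1cKO against WT. Points lie on both sides of 0 in each panel, and none passes an adjusted p of 0.05.

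In tanycytes 17 genes passed the filter. No gene of the set was called for any of the 4 comparisons and none had an unadjusted p under 0.05, where 2.78%, 2.38%, 3.33% and 2.74% of 2519 genes tested did and 0% passed after adjustment. The summed level was 3970 ± 525 CPM in WT oil, 3710 ± 454 in WT tamoxifen, 3270 ± 446 in Esr1cKO oil and 3550 ± 553 in Esr1cKO tamoxifen mice. The smallest p for genotype belonged to Foxj1, which stood in tanycytes, in CPM, at 112, 130 and 134 in the WT oil mice, 172, 93.9, 98.2, 78.3 and 196 in the WT tamoxifen mice, 14.9, 71.4, 107 and 85 in the Esr1cKO oil mice and 68.7, 110, 96.8 and 112 in the Esr1cKO tamoxifen mice. It overlapped between genotypes, at -0.50 ± 0.28 (unadjusted p = 0.0893, edgeR adjusted p = 1).

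In the pool of all kept cells, which resembles a bulk sample, all 32 genes were tested and none was called or had an unadjusted p under 0.05, where 1.87%, 3.25%, 4.26% and 4.31% of 16626 genes tested did and 0% passed after adjustment. This depended on the model. With a block for the successive fours of library numbers described below, 14, 1, 14 and 10 of the 32 had an unadjusted edgeR p under 0.05. Of all genes 3.27%, 5.58%, 7.14% and 6.16% did, and 0% passed after adjustment. Here fewer ciliated cells and less RNA per cell cannot be told apart. The median log2 fold changes of the 32 genes were -0.32, 0.27, 0.50 and -0.28, and without S10 and S11 they were 0.43, 0.05, -0.41 and -0.03. The sign for tamoxifen in WT mice and for the difference between responses thus turned with these 2 libraries.

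The share of ciliated cells was 0.815% to 8.18% of kept cells over the mice, and that of tanycytes 1.06% to 5.73%. Ciliated cells made up 3.88% ± 3.74 of kept cells in WT oil, 3.19% ± 1.66 in WT tamoxifen, 1.99% ± 1.07 in Esr1cKO oil and 3.23% ± 2.15 in Esr1cKO tamoxifen mice. Tamoxifen minus oil was -0.691 percentage points in WT mice (exact two-sided permutation test, p = 0.714, adjusted p = 0.857 over 6 tests) and 1.24 in Esr1cKO mice (exact permutation p = 0.314). Without S10, and equally without S10 and S11, the difference in WT mice was 1.46 (exact permutation p = 0.381). Tanycytes differed by -1.89 points in WT mice (exact permutation p = 0.107, adjusted 0.643) and by 0.0112 in Esr1cKO mice (exact permutation p = 1). None of these differences passed the exact permutation test.

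Tissue was collected over 4 days, and the sources used here do not say which libraries belong to a day. The libraries numbered S1 to S8 held 0.815% to 2.15% ciliated cells and those numbered S9 to S16 held 2.33% to 8.18%, ranges that did not overlap. The successive fours S1 to S4, S5 to S8 and S9 to S12 hold 1 library of each group, and S13 to S16 holds no WT oil library. Within the 3 fours that hold both WT groups, the tanycyte share was lower under tamoxifen in each, at 1.06% against 5.73%, 1.51% against 2.52% and 1.33% against 2.80%. The mean difference was -2.38 points (exact permutation within fours, p = 0.25, the smallest it can give here, adjusted p = 0.5 over 6 tests). In Esr1cKO mice the tanycyte share was lower under tamoxifen in 3 of 4 fours, with a mean difference of 0.0112. The ciliated share differed within fours by 0.0728, -0.482 and -3.42 points for tamoxifen in WT mice, and by 0.89, -0.443, 1.88 and 2.63 in Esr1cKO mice (exact permutation within fours, p = 0.5 and 0.25). Between genotypes the ciliated share was lower in Esr1cKO mice in 4 of 4 fours and the tanycyte share in 2 of 4. The mean difference in the ciliated share was -0.842 points (exact permutation within fours, p = 0.176, where the smallest possible is 0.00154, adjusted p = 0.5).

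Gene length marked the 2 libraries that stood apart. In neurons, 10 of the 32 genes were lower in both S10 and S11 than in every one of the other 14 libraries, namely Dnah5, Dnah9, Dnah11, Dnah6, Dnah12, Spag6, Spag16, Spag17, Hydin and Ak7. All 10 were among the 25 that passed the filter on low counts. Of all 12397 genes that passed it in neurons, 20.3% were likewise lower in both, and of the 2323 that span more than 100 kb 58.7% were. Spag16 (chr1:69826872-70725132) stood in neurons at 9.22 and 5.08 CPM in S10 and S11 and at 40 to 73.4 in the others. Dnah11 (chr12:117877982-118199043) stood at 0 and 2.31 against 10.6 to 37.5. These 10 genes span 55.7 to 898 kb of genome (median 288), and the other 22 span 3.57 to 93.9 kb (median 18).

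In ciliated cells 3 of the genes lay below all other libraries in both S10 and S11, where 8.52% of 5633 genes did, a share close to that of the set. Spag16 stood at 207 and 263 CPM against 457 to 996, Dnah11 at 76 and 108 against 136 to 335, and Spag6 at 304 in each against 323 to 528. The same held across all genes: the median ratio of S10 and S11 to the other libraries in ciliated cells was 1.15 for genes up to 20 kb, 1.04 for 20 to 50 kb, 0.915 for 50 to 100 kb and 0.571 above 100 kb. In neurons these ratios were 1.13, 0.958, 0.811 and 0.484. Short genes of the set, such as Foxj1 (4.8 kb), were at 1.19 of the other libraries in ciliated cells. Other long genes of the set varied. Dnah9 (337 kb) and Dnah6 (205 kb) were at 0.604 and 0.727 of the other libraries in ciliated cells, and Dnah5 (317 kb) at 1.01. S10 is a WT oil and S11 an Esr1cKO tamoxifen library. The values of Dnah11, Spag6 and Spag16 in the group comparisons therefore carry this difference. For Dnah9 other libraries stood lower still, S8 at 151 and S2 at 161 CPM, against 171 in S10 and 185 in S11. For Dnah6, S1 stood at 328, against 329 and 384. Other genes had a higher mean in S10 and S11. Ccdc153, Dynlrb2 and Iqcg, of smallest p for tamoxifen in WT mice, were at 1.35, 1.23 and 1.3 of the other libraries in ciliated cells. For Ccdc153 this came from S10, at 2640, since S11 at 1590 lay within the 1270 to 1880 of the other libraries. Tekt2 and 1110017D15Rik were at 1.86 and 1.27. The cause of the difference was not tested.

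**Figure D5:**
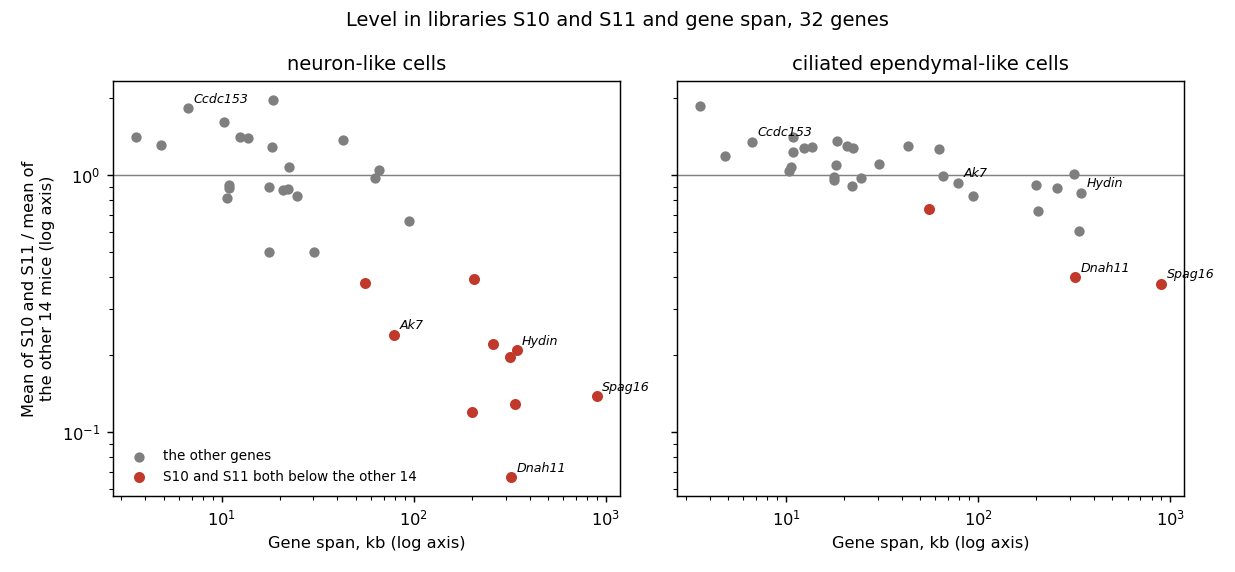
Ratio of the mean level in S10 and S11 to the mean of the other 14 libraries (vertical log axis) against the genomic span of each of the 32 genes in kb (horizontal log axis), in neurons and in ciliated cells. Red points are genes below every other library in both S10 and S11, 10 in neurons with spans of 55.7 to 898 kb and 3 in ciliated cells.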

How the data were processed

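Per the labels and the study's methods, the authors aligned Drop-seq reads to mm10 (the labels name STAR 2.6) and deposited a matrix of UMI counts per gene and barcode for each of 16 libraries. The genes and lists were chosen with earlier results of these data known. Cells with over 200 and under 4000 genes and at most 15% mitochondrial UMIs were kept, 1746 to 5568 per library, at 563 to 819 median UMIs per cell. They were clustered in Seurat 5.3.0 (2000 variable genes, 20 components, resolution 0.05, and 0.3 within the ependymal cluster) after removal of 79 listed cilium genes, 27 of the 32 among them, from the variable genes. Clusters were named from at least 3 markers. Doublets called by Scrublet were kept (24 ciliated cells). The matrices of S10 and S11 hold barcodes with 100 or more genes and the others those with 20 or more.

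UMIs were summed per library and cell set. edgeR 4.0.16 (TMM, filterByExpr, quasi-likelihood test, Benjamini-Hochberg over all genes tested, threshold 0.05) compared cell sets with the library as block, and the 4 groups in 1 fit. Levels in CPM are per 1000000 UMIs of a set, unscaled for length, and are not compared between genes. Genes given mouse by mouse were Foxj1, the 6 with most UMIs in ciliated cells, the 4 differing least between ciliated and other cells and, since no group comparison called a gene, the 3 of smallest p in each. Of the other cilium lists at most 3 genes of smallest p were named. Cell shares were compared by exact permutation tests (scipy 1.17.1). The code was tested on simulated counts, with the result for ciliated cells given above. For tamoxifen in WT tanycytes it called 4.65%, 31.6% and 100% of genes changed 1.5-, 2- and 4-fold. Alternatives were DESeq2 1.42.0, its size factors, no filter, other cell limits and clusterings, removal of doublets, shared barcodes or single libraries, and blocks or terms for libraries. The comparisons of neurons and of tanycyte sub-clusters, the cell shares within fours, and the alternatives on S10, S11 and shared barcodes, were added after the data were seen.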

Additional observations from a re-analysis of the deposited data

Results flagged for a closer look

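Among 66 groups of 4 or 5 mice tested for a value far from the others, 4 held one, and chance gives such a value in about 5% of groups. The tanycyte share of kept cells was 3.72% in S15, where the other Esr1cKO tamoxifen mice stood at 1.42% to 1.8%. In WT tamoxifen mice it was 3.4% in S13, where the others stood at 1.06% to 1.68%. Fam183b in ciliated cells stood at 1610 CPM in S16, where the other WT tamoxifen mice stood at 1200 to 1280. Dnah9 in ciliated cells stood at 358 in S15, where the other Esr1cKO tamoxifen mice stood at 161 to 194.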

How the results depend on the processing

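Of the counts of called genes under all alternatives, 880 lay within 1.5 times the value reported and 9 did not. Most of the 880 came from group comparisons, where 0 genes were called both as reported and under the alternatives. The 1423 alternative log2 fold changes of named genes and the 150 alternative differences in cell shares kept their side of the threshold, and the 981 of called genes kept their direction. Among uncalled values the sign turned in 6 of 442 log2 fold changes, of 4 results (Ccdc153 for tamoxifen in WT, -0.456 to 0.0331; Spag16 for genotype, -0.102 to 1.01; in neurons Ak7, -0.19 to 0.101, and Spag16, -0.0208 to 0.135), and in 10 of the 150 differences in shares. The ciliated difference became 1.46 points in WT without S10 and -0.0201 in Esr1cKO with a mitochondrial limit of 5%, the tanycyte difference ranged from -0.558 to 0.394 in Esr1cKO, and that between genotypes was 0.0693 without S1. With no filter on low counts, 20 genes rather than 3 were higher in Rspo3-led than in Col25a1-led tanycytes, as 32 rather than 3 were then tested, and 8 rather than 2 were lower in neurons. With a mitochondrial limit of 5%, 10 rather than 16 genes were higher and 0 rather than 2 were lower in neurons, and the cause was not tested. The count lower in neurons was 1 to 3 when single libraries were left out (1 without S5, S11 or S16, 3 without S6), 1 without S10 and S11, and 1 without cells whose barcode is in another library. Group comparisons called 0 genes under every alternative run. No paired analysis was possible because the library numbers are each used once and the sources used here do not tie libraries to a collection day. A block for successive fours of library numbers called 0 of the genes. In all kept cells it gave 14, 1, 14 and 10 of the 32 an unadjusted p under 0.05 for tamoxifen in WT, tamoxifen in Esr1cKO, the difference between them and genotype, against 3.27%, 5.58%, 7.14% and 6.16% of all 16626 genes. The planned removal of S5 and S6 was run, but the libraries that stood apart here were S10 and S11. The smallest library held 20 ciliated cells, Tekt2 gave 97 UMIs in ciliated cells in all, and 17 genes passed the filter in tanycytes. Thinning to 500 UMIs moved 33 shares of cells with a UMI.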

Other observations

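Outside ciliated cells and tanycytes, and leaving out the 8 choroid plexus-like and the 52 unnamed cells, which come from 1 library each and held many of the genes at higher levels, the type with the highest pooled level was the pars tuberalis for 21 of the 32 genes, neurons for 5, astrocytes and oligodendrocytes for 2 each, and endothelial cells and microglia for 1 each. The pars tuberalis levels rest on 214 cells and, for these 21 genes, on 2 (Dnali1) to 55 (Calml4) UMIs each. Ccdc153 and Ak7 gave 3 and 4 UMIs there, and like Dnali1 had a median of 0 over the mice with enough cells. The share of all genes that were highest in the pars tuberalis was not counted. Calml4, a calmodulin-like gene, gave 55 UMIs there, at 77.8 to 316 CPM over the mice with enough cells. It was also seen in fibroblasts, at 0 to 105, and averaged 2.42 ± 1.47 in neurons.

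Among these types, Foxj1 and Dnah12 were the 2 genes highest in oligodendrocytes. Foxj1 stood there at 9.12 to 28.2 CPM over the 16 mice (median 19.3), and was found in 1.63% of oligodendrocytes (95% exact interval 1.38% to 1.91%), 0.744% of neurons and 0.112% of endothelial cells, at median depths of 752, 1488 and 729 UMIs per cell. At 500 UMIs the shares were 0.86%, 0.178% and 0, the last with an upper limit of 0.0748%. Tmem212 stood in oligodendrocytes at 0 to 13 CPM (median 4.7). Foxj1 and Tmem212 gave 162 and 50 UMIs in oligodendrocytes, against 2260 and 7104 in ciliated cells, so their ratio was not that of ciliated cells, and its cause was not tested.

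The 52 unnamed cells of S11, led by Sspo, Spp2, Wfdc2 and Spdef, held the 32 genes at a summed 12300 CPM, with a median of 10 of the genes per cell at 1104.5 UMIs. After thinning to 500 UMIs, 77.1% of them held 5 or more. They come from 1 library, so no spread between mice can be given.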
